A study of Drosophila melanogaster with 12 samples.

Results

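AGO3, Hen1 and gw are 3 genes of the Drosophila small RNA pathways whose 3′ ends were compared between mitotic and meiotic germ cells of the testis. They were chosen by their symbols, and the 4 deposited tables list 1457 genes in all. AGO3 and gw are in 4 of the 4 tables and Hen1 is in 1, that for tut mutant testes. The study made 12 RNA sequencing libraries. SC stands for meiotic germ cells (spermatocytes) and SG for mitotic germ cells (spermatogonia). Both were laser dissected from testes of wild-type flies, and each has 3 libraries. Testes of tut (tut3), bam (bamBG/bamΔ86) and bgcn (bgcn20093/bgcnQS2) mutants form the groups SG-tut, SG-bam and SG-bgcn. They hold mainly germ cells stopped at mitosis, with 2 libraries each. Ages are not given in the labels. The mutant samples are whole testes, so somatic cells are included, and their libraries were made with another kit than SG and SC. Genotype, dissection and kit therefore cannot be told apart between the mutants and SC.

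Argonaute proteins carry small RNAs to matching transcripts. In the germ line, AGO3 carries piRNAs and, with its partner Aubergine, cuts transposon and piRNA precursor transcripts in the ping-pong cycle that amplifies piRNAs. Hen1 is the methyltransferase that adds a methyl group to the 3′ end of piRNAs and siRNAs, which protects them. gw encodes gawky, the fly GW182 protein, which binds Argonaute 1 on microRNA targets and recruits the deadenylases that shorten poly(A) tails. In fly testis the piRNA pathway is known for silencing Stellate and transposons.

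Messenger RNAs of a gene can end at several 3′ positions, and the study lists stretches that are called extensions. How an extension was defined is not given in the sources used here. An extension is therefore not taken here as a mapped 3′ end. Each table gives, per group, the authors' average level of the gene and of its extension, and the extension share, which is 100 times the extension level divided by the gene level. Levels carry no named unit, no values per library are used here, and so no replicate error can be given. Depth per library is unknown. Whether libraries of 1 group came from separate flies is not stated, so the authors' P may measure technical spread alone. The FDR is the authors' own, and whether it tests the extension or its share is not given in the sources used here. Every listed row has P below 0.05, an extension level that differs more than 2-fold, and a share that moves the way of the extension. A listed gene therefore had to differ, and a gene missing from a table has no known value there.

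The extensions of the 3 genes lie in different places, all in dm6 coordinates counted from 1. The AGO3 extension is inside the gene. AGO3 spans chromosome 3L from 23554593 to 23689640 on the plus strand, and its extension runs from 23649467 to 23650536 in the SG comparison (1070 bases) and to 23650526 in the 3 mutant comparisons (1060 bases). Of 4 annotated AGO3 transcripts, AGO3-RG is the short one. It ends at 23649456, with its stop codon, and has no annotated 3′ UTR. The extension starts 10 bases after that end. The other 3 transcripts splice at 23649372 to a last exon that begins at 23689485, so the extension lies in their last intron, which is 40112 bases long. Extensions wholly inside the gene and outside its exons were 2.59% of those in the SG table and 2.69 to 3.77% in the mutant tables.

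The AGO3 extension overlaps transposon copies, the class of sequence that piRNAs target. A mariner2 copy on the opposite strand covers 459 of its bases, and a 1360 copy on the same strand covers 150 in SG and 140 in the mutants. Together they make up 56.9% of the SG extension and 56.5% of the mutant ones. An overlap of 50% or more with transposon copies was present in 3.6% of the SG table's rows and in 2.87 to 3.56% of the mutant rows. Within AGO3 as a whole 106 annotated transposon copies lie from end to end. How reads that match several copies were placed is not given in the sources used here, and the part of such reads in the AGO3 values was not tested.

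The gw extension crosses the annotated end of the gene. gw lies on the minus strand of chromosome 4 and its longest 3′ UTR, that of transcript gw-RJ, ends at 649041. In each comparison the extension began at 649390, within that 3′ UTR, with 350 bases in it. It reached 648261 in the SG comparison (1130 bases), and 646557 for SG-tut and SG-bam (2834 bases) or 646621 for SG-bgcn (2770 bases). The next gene on the same strand, Ekar, starts at 646556. The SG-tut and SG-bam extensions thus end 0 bases from Ekar, that of SG-bgcn 64 bases away, and that of SG 1704 bases away. An end 0 bases from the next gene was seen in 16.1% of the rows of the SG-tut table and 14.9% of those for SG-bam. The past-the-gene part made up 69.0% of the SG extension and 87.4 to 87.6% of the mutant ones. A mariner2 copy on the opposite strand takes 21 bases of the SG extension and 756 bases of each mutant one.

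The Hen1 extension lies past the gene and partly in its neighbour. Hen1 spans chromosome 2R from 12145710 to 12152752 on the plus strand. Its extension for SG-tut runs from 12152833 to 12153408 (576 bases) and begins after a gap of 80 bases. The gene CG8407 starts at 12153071 on the same strand, so 338 of the 576 bases (58.7%) are also CG8407, 151 of them in its exons. An overlap of 50% or more with another gene of the same strand was present in 13.6% of the SG-tut rows. Reads of the 2 genes cannot be told apart there, and CG8407 itself is listed in 0 of the 4 tables. The gene bsd lies within Hen1 on the opposite strand over 5034 bases, and the strand setting of the counting is not stated, so the Hen1 gene level is uncertain too.

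**Figure D1:**
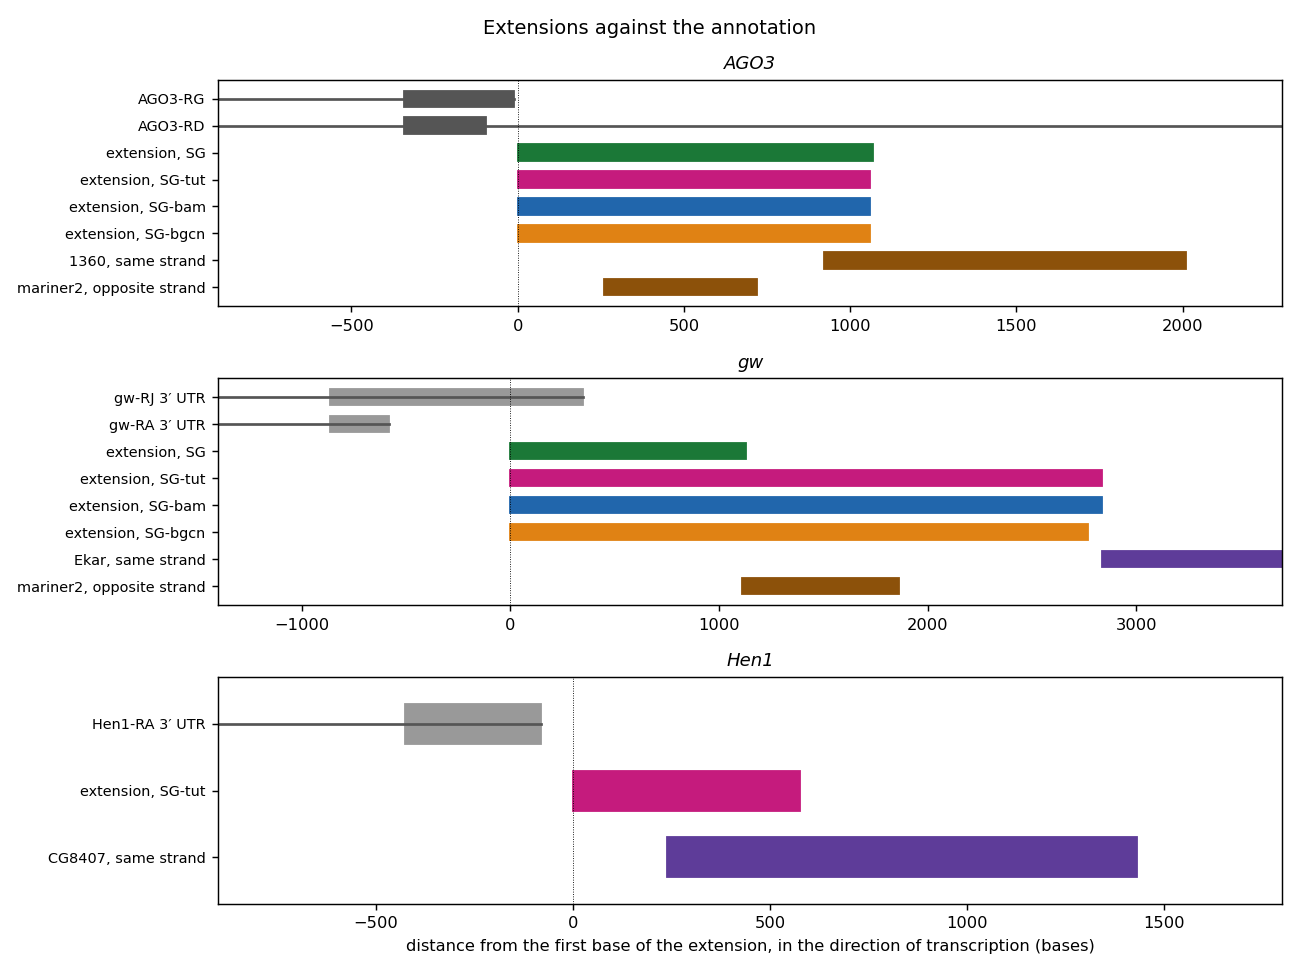
Position of each extension relative to the annotation, in bases from the first base of the extension in the direction of transcription. For AGO3, dark boxes are the exon next to the extension and lines are introns or the rest of the transcript, and AGO3-RD stands for the 3 long transcripts. For gw and Hen1, grey boxes are annotated 3′ UTRs and gw-RA stands for the shorter forms. Coloured bars are extensions, brown bars transposon copies and purple bars neighbouring genes. The AGO3 extension sits in the last intron, that of gw runs to the start of Ekar in SG-tut and SG-bam, and that of Hen1 overlaps CG8407.

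AGO3, the piRNA-guided Argonaute, had a higher extension share in all 4 mitotic groups than in SC. The share is a ratio of 2 levels and not a part of the gene's reads, since an extension level can exceed the gene level. The authors' deposited table puts its extension share at 4.27% in SC against 39.5% in SG (FDR 0.000386). In the mutant comparisons the SC share was 4.31% and the authors' deposited tables give 9.35% in SG-tut (FDR 0.00778), 9.98% in SG-bam (FDR 5.47e-05) and 10.3% in SG-bgcn (FDR 0.00111). The share of SG stands apart from those of the 3 mutants, which lie between 9.35% and 10.3%. Whether SG and the mutants differ was not tested, because the tables hold no libraries and the kits differ. At an FDR of 0.05 or less, calls make up 96.4% of the listed genes in the SG table, 97.1% in that of SG-tut, 95.6% in that of SG-bam and 94.5% in that of SG-bgcn, and AGO3 is among them in each. The calls with the higher share in the mitotic group were 88.5%, 71.9%, 73.5% and 71.0% of the listed genes, in the same order. A higher share in SC was called for 7.86%, 25.2%, 22.1% and 23.5% of them. Being called in that direction is therefore common among listed genes.

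The AGO3 extension level itself was higher in the mitotic groups, by 6.11 to 10.9 times. The authors' deposited tables give extension levels of 1.78 in SC against 19.5 in SG, and, with 1.80 in SC, 13.6 in SG-tut, 11.0 in SG-bam and 12.8 in SG-bgcn. Gene levels followed another order. The authors' deposited tables give gene levels of 41.69 in SC, 49.39 in SG, 109.96 in SG-bam, 123.81 in SG-bgcn and 145.42 in SG-tut. SG was 1.18 times SC, while the 3 mutants were 2.64 to 3.49 times SC. SG, the group with the highest extension level, thus had the lowest gene level of the mitotic groups. With no spread between libraries, none of the steps in these orders can be set against replicate error.

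For AGO3, gw and Hen1, all with shares below 100%, the log2 fold of the extension is close to the sum of those of gene level and share. This does not hold for rows whose share is set at its limit of 100%. For AGO3 in SG the authors' deposited table gives 3.45 for the extension, 0.24 for the gene level and 3.21 for the share. The share thus makes up 92.9% of that log2 fold. In SG-tut the authors' deposited table gives 2.92 for the extension, 1.80 for the gene level and 1.12 for the share, so the share makes up 38.3%. The corresponding part was 46.4% in SG-bam and 44.6% in SG-bgcn. These log2 folds of the share were below the median over all calls with the higher share in the same mitotic group, which was 3.50 in SG and 2.94 in SG-tut. For SG-bam and SG-bgcn the authors' deposited tables give 1.21 and 1.26, against medians of 3.16 and 3.05.

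gw, the GW182 protein of microRNA silencing, showed very small shares in SC and larger ones in every mitotic group. For gw the authors' deposited table lists 0.195% in SC against 5.55% in SG (FDR 1.16e-09). For the mutants the authors' deposited tables give 0.173% in SC against 0.904% in SG-tut (FDR 0.0028), 0.173% against 1.004% in SG-bam (FDR 0.00909), and 0.171% against 0.997% in SG-bgcn (FDR 0.00519). As with AGO3, the SG share was the highest and the mutants lay close together. The extensions compared are not the same stretch, since that of SG is 1130 bases long and those of the mutants are longer.

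The gw extension was weakly covered in SC. Its level in SC was 0.0375 over the SG stretch, 0.0332 over the SG-tut and SG-bam stretch and 0.0329 over the SG-bgcn stretch in the authors' deposited tables. The longer stretches contain the shorter one and still have the lower level, so the level is not a plain sum over the extension. Across all pairs of tables the longer of 2 nested extensions of a gene had the lower SC level in 1005 of 1219 pairs. In the mitotic groups the authors' deposited tables give gw extension levels of 1.42 in SG, 1.09 in SG-tut, and 1.01 in both SG-bam and SG-bgcn. These are 30.4 to 37.8 times the SC level, which is itself so low that the ratio rests on little signal.

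Gene levels of gw separated the mutants from the dissected cells, as they did for AGO3. The authors' deposited tables give 19.25 in SC, 25.54 in SG, 100.55 in SG-bam, 101.67 in SG-bgcn and 120.19 in SG-tut. SG was 1.33 times SC, and the mutants were 5.22 to 6.24 times SC. The log2 fold of the extension hardly varied between comparisons, with 5.24 in SG, 5.03 in SG-tut, 4.92 in SG-bam and 4.95 in SG-bgcn in the authors' deposited tables. Its makeup did vary. The share accounts for 92.1% of it in SG and for 47.3 to 51.4% in the mutants, the rest being gene level. The 4 comparisons share the SC libraries. The deposited gw locus also runs 2495 bases further upstream than the current gene model and covers 2095 bases now annotated as CG46466. The part of CG46466 reads in the gw gene level was not tested.

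Hen1, the small RNA methyltransferase, is listed for tut mutants only and went another way than AGO3 and gw in gene level. The authors' deposited table lists a share of 1.82% in SC against 12.9% in SG-tut (FDR 0.00108). The extension level in the authors' deposited table was 2.48 in SC against 5.35 in SG-tut, a ratio of 2.16, which is just over the 2-fold that every listed row passes. The gene level in the authors' deposited table was 136.33 in SC against 41.51 in SG-tut. On the log2 scale the authors' deposited table gives 1.11 for the extension, 2.82 for the share and -1.72 for the gene level. The higher share thus goes with a lower gene level, which is its divisor, and with an extension that shares 58.7% of its bases with CG8407. For SG, SG-bam and SG-bgcn no Hen1 value is known.

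**Figure D2:**
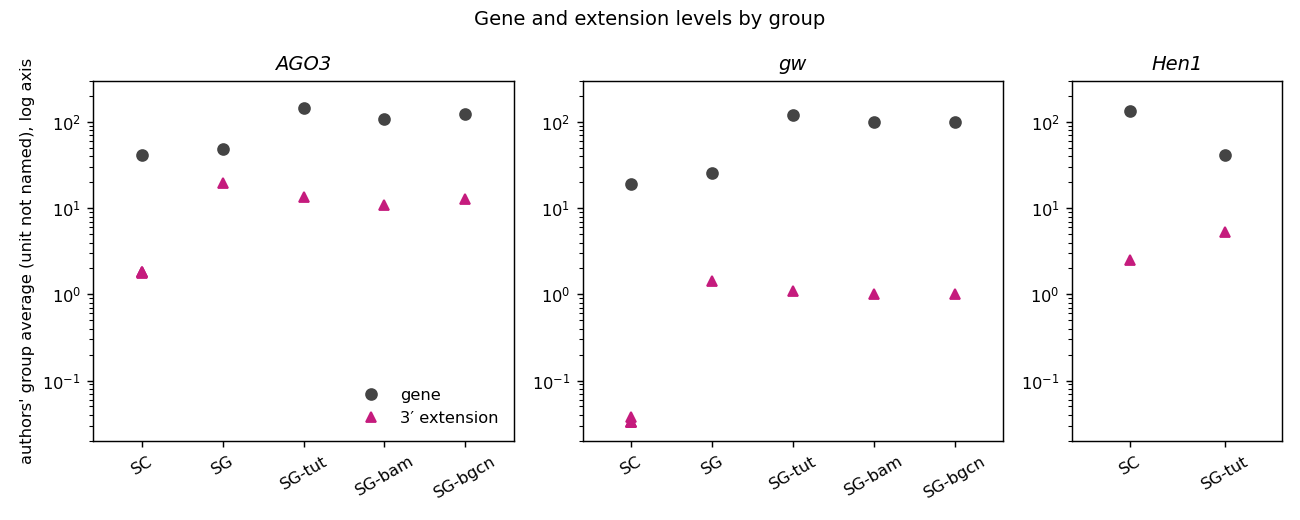
Group averages of the gene (grey circles) and of its 3′ extension (pink triangles) for AGO3, gw and Hen1 on a log axis, in the authors' unnamed unit, with no error bars because no library values are used. Triangles at SC are 1 per table. Extension levels of AGO3 and gw are higher in all mitotic groups than in SC, and their gene levels are highest in the 3 mutants. For Hen1 the gene level is lower in SG-tut.

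**Figure D3:**
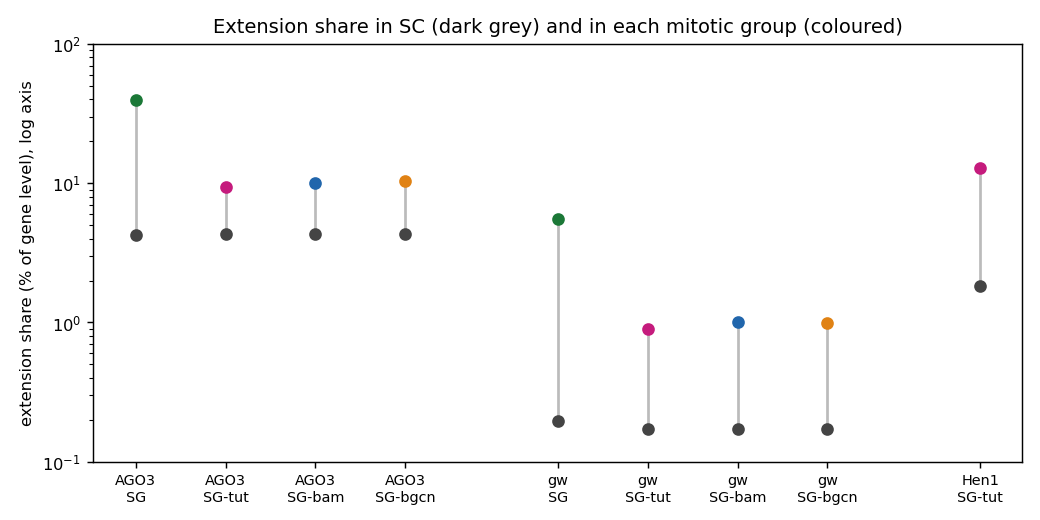
Extension share as a percentage of the gene level on a log axis, in SC (dark grey) and in the mitotic group of each table (coloured), for AGO3, gw and Hen1. The share is higher in the mitotic group in all 9 comparisons, and in SG it reaches 39.5% for AGO3 and 5.55% for gw, above the mutants.

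**Figure D4:**
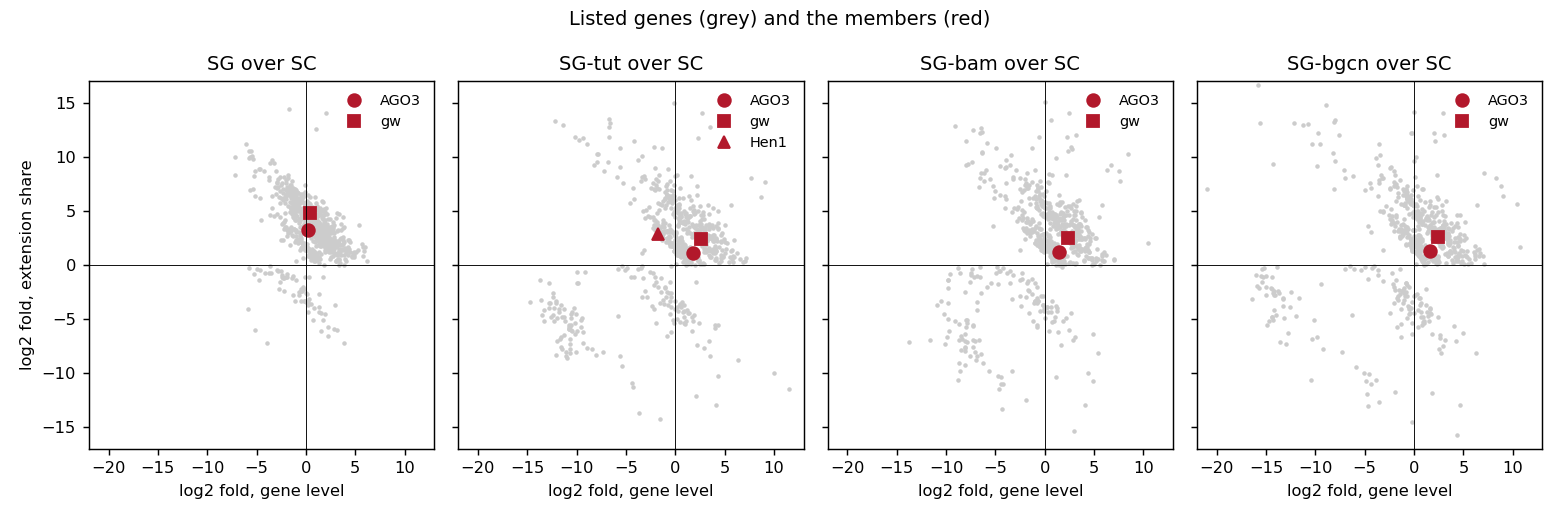
Authors' log2 fold of the extension share against the log2 fold of the gene level, each mitotic group over SC, for all listed genes (grey) and for AGO3, gw and Hen1 (red). AGO3 and gw sit near 0 on the gene axis in SG, at 0.24 and 0.41, and at 1.40 to 2.64 in the mutants, while Hen1 sits at -1.72 in SG-tut.

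Other genes of the small RNA pathways and their effectors were looked up in 3 lists, which include AGO3, Hen1 and gw. Of 65 genes, 9 (13.8%) are listed in at least 1 table, beside 1437 of 13986 annotated protein-coding genes (10.3%). AGO3, Hen1 and gw were chosen with their listing known, so their place among the 9 was fixed in advance. The counts and medians below include them where they are listed. The 9 are 3 of 33 piRNA pathway genes, 3 of 13 genes of the microRNA and siRNA pathway, and 3 of 19 in the deadenylation and decapping list. One of the last, Rcd1, was matched by its symbol alone and is not shown here to be a deadenylation gene. The counts for SG and over all lists include it. The unlisted ones include vas, aub, piwi, AGO2, Dcr-1 and Dcr-2. By direction, 6 of 6 listed genes were called with the higher share in SG, beside 88.5% of all listed genes. For SG-tut 4 of 6 were called with the higher share in SG-tut, 1 with the higher share in SC and 1 was not called. The numbers were 3, 1 and 1 of 5 in the SG-bam table and 4, 1 and 0 of 5 in the SG-bgcn table. Over all listed genes, the higher share in the mitotic group was called for 71.9% in SG-tut, 73.5% in SG-bam and 71.0% in SG-bgcn. A higher share in SC was called for 25.2%, 22.1% and 23.5% of them, in the same order. The median log2 fold of the share over the listed genes of the lists was 3.45 in SG, 1.75 in SG-tut, 1.21 in SG-bam and 1.26 in SG-bgcn, beside 3.29, 2.01, 2.25 and 2.17 over all listed genes.

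Partners of GW182 were among them. AGO1, the Argonaute that carries microRNAs and binds GW182, is listed for SG, and the authors' deposited table puts its share at 26.1% in SC against 100% in SG (FDR 6.74e-25). Its extension level in SG, 55.8, exceeded its gene level of 21.72 in the authors' deposited table, so the share is set at its limit. The AGO1 extension lies in its annotated 3′ UTR for 2050 of 2059 bases. PAN2, the catalytic subunit of a deadenylase that GW182 recruits, is listed in every table. Its share was 0.626% in SC, 8.07% in SG (FDR 0.000178), 14.0% in SG-tut (FDR 0.000758), 13.1% in SG-bam (FDR 0.00246) and 12.5% in SG-bgcn (FDR 0.0047) in the authors' deposited tables. For PAN2 the mutants thus had the higher share than SG, the opposite order to AGO3 and gw, though this difference was not tested. The PAN2 extension is the same 299 bases in each table and ends 0 bases from the next gene on the same strand. Its level in SC was 0.074 in each table, so the PAN2 ratios rest on little signal, as those of gw do.

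The remaining genes had small shares or other positions. Not1, the scaffold of the CCR4-NOT deadenylase, had 0.0569% in SC against 0.479% in SG (FDR 0.0426) per the authors' deposited table. Rcd1, which was matched by its symbol alone, had 0.0892% in SC against 1.59% in SG (FDR 0.0326) per the authors' deposited table. The extension levels in SC were 0.0277 for Not1 and 0.0263 for Rcd1, so these ratios rest on little signal. Ranbp21, the fly exportin 5, had 0.732% in SC against 1.21% in SG-bgcn in the authors' deposited table (FDR 0.0499). It did not pass 0.05 in the other mutants, with 0.842% against 1.40% in SG-tut (FDR 0.0639) and 0.719% against 1.05% in SG-bam (FDR 0.0672) in the authors' deposited tables. The Ranbp21 extension level in SC was also low, at 0.0554 to 0.0649 in these comparisons. vls encodes Valois, a partner of the methyltransferase that modifies Piwi family proteins. It was the 1 gene with the higher share in SC, with 7.95% in SC, 0.405% in SG-tut (FDR 1.72e-06) and 0.385% in SG-bam (FDR 1.64e-07) in the authors' deposited tables. For SG-bgcn the authors' deposited table gives vls 7.88% against 0.618% (FDR 2.48e-06). Its extension begins 2801 bases past the gene in the SG-tut and SG-bam tables, and 393 of its 483 bases there lie in another gene of the same strand.

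**Figure D5:**
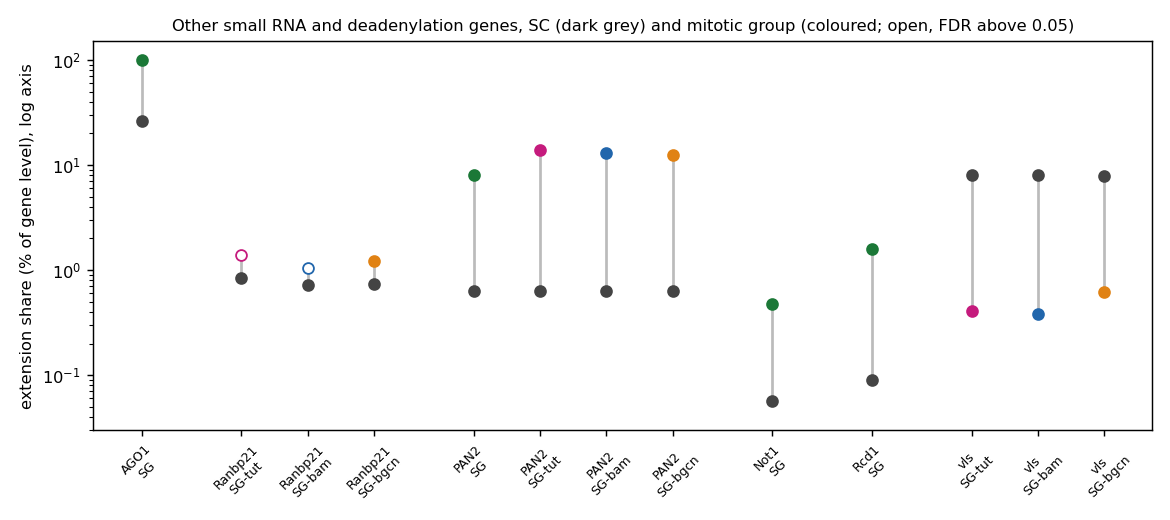
Extension share on a log axis in SC (dark grey) and in the mitotic group (coloured, open where the FDR is above 0.05) for the other listed genes of the small RNA and deadenylation lists. AGO1 goes from 26.1% to 100% in SG, PAN2 from 0.626% to 8.07% or more, and vls has the higher share in SC in 3 tables.

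The pattern of gene level and share over the tables was matched with that of other genes. Likeness was the Euclidean distance over the log2 ratio of gene levels (1 added to each level) and the log2 fold of the share in every table that lists the member. Over 8 values in 4 tables and 134 candidate genes, those nearest to AGO3 were SPoCk (distance 1.08), Elf (1.73) and ben (1.98), and those nearest to gw were jing (1.22), CG14446 (1.33) and Ank (1.35). With 0.1 added in place of 1, Ank alone of these stayed among the 3 nearest to gw. The gene levels of jing and CG14446 in SC were 0.98 and 0.65 in the authors' deposited tables, so the added constant weighs on their ratios. Their shares in SG are at the limit of 100% in the authors' deposited table, because the extension level exceeds the gene level. SPoCk, a calcium pump of the secretory pathway, had shares of 3.41% in SC against 34.2% in SG, and 4.20% in SC against 7.98% in SG-tut, in the authors' deposited tables. Its SG row does not pass the threshold (FDR 0.0569). For Ank, an ankyrin, the authors' deposited tables give gene levels of 16.7 in SC, 21.18 in SG and 109.59 in SG-tut. Its share was 0.89% in SC against 16.7% in SG per the authors' deposited table. Hen1 has 2 values in 1 table, and its nearest genes of 624 were CG3209 (0.29), CLIP-190 (0.35) and lilli (0.42). CLIP-190, a microtubule-binding protein, went from a gene level of 158.62 in SC to 42.98 in SG-tut per the authors' deposited table. All these points share the SC averages.

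Gene levels of cell type markers differed between groups, as far as the markers are listed. In bulk tissue fewer cells of a type and less RNA per cell cannot be told apart, and the sums below rest on other genes in each table. Of 13 spermatocyte and spermatid markers 2 or 3 are listed per table, with summed gene levels of 317.51 to 9506.75 in SC and 1.86 to 24.84 in the mitotic groups. Of 8 muscle, fat and blood markers 1 or 2 are listed, with sums of 18.18 to 22.7 in SC, 105.12 in SG and 157.86 to 279.9 in the mutants. Most of each sum outside SC is Tm1, with 97.18 in SG and 212.92 in SG-bgcn, and Tm1 alone is listed for SG-tut and SG-bam. Of 9 cyst and hub cell markers 0 to 3 are listed, with sums of 143.81 in SC against 19.6 in SG, 2.7 against 9.99 in the SG-bam table, and 141.47 against 9.13 in the SG-bgcn table. The lower sums in SG and SG-bgcn come from dally alone, with 138.77 in SC, 5.13 in SG and 0.15 in SG-bgcn in the authors' deposited tables. zfh1 had 2.7 in SC, 11.26 in SG and 8.98 in SG-bgcn, and CadN 2.34 in SC against 3.21 in SG, in the authors' deposited tables. Of 7 mitotic germ line markers 1 to 3 are listed, with sums of 113.46 in SC against 79.07 in SG, 0.57 against 19.26 in the SG-tut table, 26.21 against 66.52 in the SG-bam table, and 26.21 against 50.78 in the SG-bgcn table. In SG its members went both ways, with stg at 0.57 in SC against 23.53, tut at 87.25 against 44.16 and mei-P26 at 25.64 against 11.38 in the authors' deposited table. None of the listed markers is at 0, and bam, bgcn and vas are not listed. The part of cell makeup in the AGO3, gw and Hen1 values was not tested.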

How the data were processed

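The submitters' processing notes name TopHat2 2.1.0, Trimmomatic 0.33, FastQC 0.11.3, CASAVA and DESeq2 beside Cuffdiff 2.2.1 and Cufflinks 2.2.1, and the build dm6, with no role for any tool. Per the file headers, each deposited table compares 1 mitotic group with SC. It holds the authors' P-value and FDR, group averages of gene and extension levels (unit not named), the extension share as a fraction, and the log2 fold of each. The share equals, in every row, the extension plus 1e-05 over the gene plus 1e-05, limited to 1, and is printed as a percentage.

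Calls use the authors' FDR at 0.05 or less. No test was run, since the tables hold group averages. Extensions were set against Ensembl 115 (BDGP6.54, dm6), where 1438 of 1457 gene IDs were found and 1428 loci were identical. Overlaps and distances were computed with Python 3.11.15 and pandas 2.3.3, after tests on simulated data. Named genes are the 3 members, every listed gene of 3 lists and the 3 genes nearest to each member. The genes and lists were chosen with earlier results of these data known.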

Additional observations from a re-analysis of the deposited data

How the results depend on the processing

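The 9 extension shares of AGO3, gw and Hen1 kept their direction and their call at an FDR of 0.01 or less, and their direction as plain ratios without an added constant or limit. At an FDR of 0.01, list genes called with the higher share in the mitotic group fell from 6 to 4 in SG and from 4 to 3 in SG-bgcn. The other counts of called list genes stayed the same, and all did with levels above 0 only. Taking direction from the extension level could not change a count, because the share moves the way of the extension in every listed row. Of the 9 extensions 8 touched a transposon copy, and 4, those of AGO3, had 50% or more of their length in such copies. The 9 are largely the same stretches of 3 genes listed again, and that of gw in SG touched with 21 bases. Among all listed extensions, 9.85% touched a transposon copy in the SG comparison and 5.58 to 8.46% in the mutant comparisons. The largest change of a log2 ratio of gene levels from its value with a pseudocount of 1 was 0.0611, for gw in SG-tut with no pseudocount. With a pseudocount of 0.1, an alternative chosen after seeing the data, 1 of the 3 genes nearest to gw, Ank, remained, as did all 3 nearest to AGO3 and to Hen1. No paired analysis was possible because the tables hold group averages, and for the same reason no replicate could be left out. The planned search for poly(A) signals was not run, as no genome sequence was used here. Depth per library is unknown, so the low SC levels of the gw extension cannot be given a counting error.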
